A study of Mus musculus with 4 samples.

Results

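The genes described here make cholesterol and long-chain fatty acids, or sense sterols and set that synthesis. They are 31 named genes, read from every non-control probe of the arrays that carries one of these names, among 27827 gene names on the arrays. The cells were primary aortic smooth muscle cells of the mouse, the muscle cells of the vessel wall, of a strain written C57LB/6 in the labels. The Atg7F/F SM22α-Cre+ cells came from mice homozygous for a floxed Atg7 allele, and the Atg7+/+ SM22α-Cre+ cells from mice with the normal allele. Both genotypes carried Cre recombinase, driven by the SM22α promoter of smooth muscle, and both grew in DMEM/F-12 medium that held 10% fetal bovine serum. Passages 4 to 10 were used. No treatment, animal age or exact passage of an extract is stated. Serum carries lipoproteins, so all cells had an outside supply of cholesterol.

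Cells make cholesterol from acetyl-CoA through mevalonate, the isoprenoid pyrophosphates, squalene and lanosterol. When membrane cholesterol of the endoplasmic reticulum is low, SCAP carries the SREBP transcription factors, encoded by Srebf1 and Srebf2, to the Golgi, where they are cut and released to switch on nearly all genes of this pathway. When it is high, the INSIG proteins hold SCAP back. The fatty acid enzymes are driven mainly by SREBP-1c and the sterol enzymes mainly by SREBP-2, so transcripts of these genes are commonly used as a readout of how much sterol a cell senses. Autophagy, for which Atg7 is an E1-like activating enzyme, can deliver stored lipid to the lysosome. The comparison asked which transcripts differ between cells with the floxed and with the normal Atg7 allele.

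There were 2 biological replicates per genotype. Same-numbered Atg7F/F and Atg7+/+ extracts were hybridised together on 2 Agilent arrays with the dyes exchanged, so 4 extracts filled 4 arrays. Values are log2 ratios of Atg7F/F over Atg7+/+, and a replicate is the mean of its 2 arrays. The share of spots well above background was 43.3% to 45.5% by channel, and 0 spots were saturated. The Atg7 probe gave -1.26 and -1.09 on the replicate 1 arrays and -0.96 and -1.57 on the replicate 2 arrays, lower on each. The floxed exon is not named in the labels, and whether the probe lies within it was not tested. Of 8 smooth muscle markers 7 were well above background, Myocd being the exception, and their summed signal lay between 195386 and 257417 in Atg7F/F and between 237074 and 268215 in Atg7+/+ extracts. Their median ratio was -0.15, with -0.16 in replicate 1 and -0.18 in replicate 2. All 8 endothelial markers were above background, and 7 of them were lower on all 4 arrays. Their median ratio was -0.32, with -0.17 and -0.43 in the replicates, and their summed signal was 4418 to 4635 against 4510 to 9680. Of 6 adventitial fibroblast and 6 macrophage markers, 6 and 4 were above background. The median ratio of the fibroblast markers was 0.01, from replicate medians of -0.45 and 0.29, and that of the macrophage markers -0.02, from -0.24 and 0.05. Both lists thus had opposite signs in the replicates, as did 18 of the members below (58.1%) and 54.5% of all genes tested. The part of other cell types in the results below was not tested. In RNA from a whole culture, fewer cells of a type and less RNA per cell cannot be told apart. The p-values from limma weigh a mean ratio against the spread between 2 replicates and cover no other source of variation. That spread is in part borrowed from all genes tested, through 2.18 of the 3.18 degrees of freedom. The smallest p open to a two-sided exact permutation of signs is 0.5.

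Most of these genes had mean ratios below 0.2 log2 units in size, which with 2 replicates does not show that the signals were equal. All 31 members were well above background in at least one genotype on all 4 arrays, through 51 of their 64 probes. Their median log2 ratio was 0.03, with -0.003 in replicate 1 and 0.08 in replicate 2, where all 12367 genes tested had a median of 0.003. The mean ratios ran from -0.33 for Hsd17b7 to 0.60 for Scd2. Of the 31 members 0 passed limma's test at an adjusted p below 0.05, where 0% of all genes tested did. At an unadjusted p below 0.05, Scd2 alone was higher, against a background of 1.34% of genes, and 0 members were lower, against 1.64%. On all 4 arrays 2 members were higher, Scd2 and Srebf1, and 1 was lower, Hsd17b7. These are 6.45% and 3.23% of the members, below the 10.6% and 9.95% of all genes tested.

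The 95% confidence intervals from limma show how large a change these arrays could have missed, except where the signal was dim. The background correction shrinks ratios of dim spots, so a narrow interval there does not bound the change. The median half-width over the members was 0.32 log2 units. The narrowest was 0.26, for Nsdhl, whose replicates had an SD of 0.003, so its width comes mostly from the spread borrowed from all genes. For 30 of the 31 members the whole interval lay within 1 log2 unit of no change, the exception being Hmgcs1. Those 30 include dim members such as Acaca, with log2 signals between 6.45 and 6.61, for which the interval sets no such bound. Only the interval of Scd2 left out 0. In size, the members' ratios had a median of 0.10, and those of all genes tested one of 0.07.

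**Figure D1:**
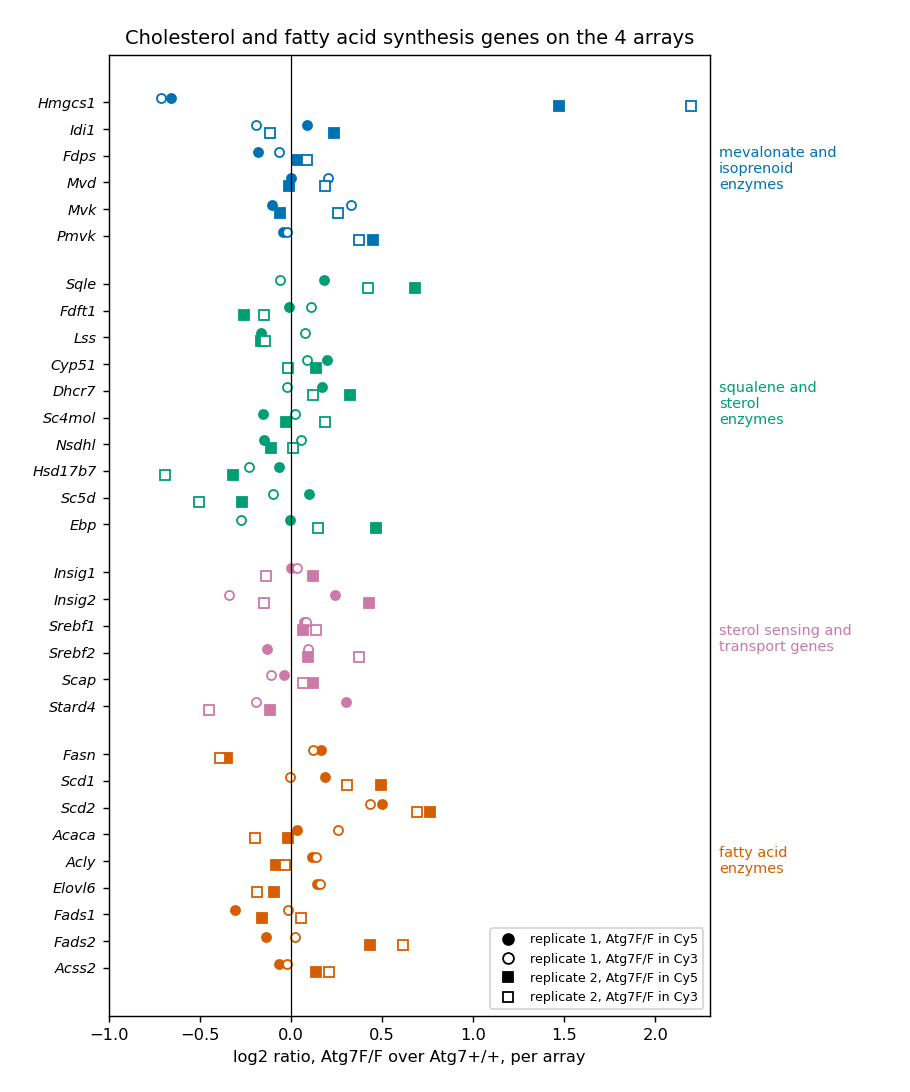
Log2 ratio of Atg7F/F over Atg7+/+ (x axis) on each of the 4 arrays for the 31 genes, grouped by role; circles are replicate 1, squares replicate 2, filled symbols have Atg7F/F in Cy5 and open symbols in Cy3. Scd2 lies right of 0 on all 4 arrays, Hsd17b7 left of 0, and the 2 replicates of Hmgcs1 lie far apart on opposite sides.

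A few probes carry the results below, and the opening 30 of their 60 bases are shown because probes of one gene did not always give the same ratio. They are written as the array files list them, with coordinates of the mm9 build. The Scd2 probe lies at chr19:44381024-44381083 and the Hsd17b7 probe at chr1:171882591-171882650. The Hmgcs1 probes lie on the unplaced part of chromosome 13 in that build, 2860 bases apart by their starts. The Pmvk probes adjoin each other at chr3:89272679-89272738 and chr3:89272739-89272798, and those of Sc5d start 2770 bases apart, at chr9:42062857-42062916 and chr9:42060087-42060146. Exons and untranslated regions are not stated, because mm9 gene annotation was not used here. The sequences were as follows.
Scd2: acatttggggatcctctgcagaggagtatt
Hsd17b7: gtattcaagagaaaggtgtgaatgtgtttg
Hmgcs1, brighter probe: tatgttttgaaaagagtaattttaacgttt
Hmgcs1, dimmer probe: tgcccttgataaaataacagcaagtttatg
Pmvk, dimmer probe: ctggcttgccagaggtctgggcaggatgct
Pmvk, brighter probe: ggtgttgtgttttccctggagaggacactc
Sc5d, brighter probe: ggctgatgtaataagattgtacttcctata
Sc5d, dimmer probe: ctcgtcttctgacccggcagtacaattctg
The probes of the desaturase paralogs Scd1 and Scd2 matched at no more than 21 of 60 bases in any ungapped alignment that overlapped by at least 20 bases.

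The mevalonate and isoprenoid enzymes build the activated isoprene units from which sterols are made. Of the 6 members 0 passed the adjusted test in either direction, and 0 were higher or lower on all 4 arrays, where 10.6% and 9.95% of all genes tested were. Their median was 0.10, with -0.04 in replicate 1 and 0.09 in replicate 2. Hmgcs1, the cytosolic HMG-CoA synthase, stood apart from the rest. Its brighter probe had log2 ratios of -0.66 and -0.72 on the arrays of replicate 1 and of 1.47 and 2.20 on those of replicate 2. The replicates therefore went in opposite directions, each with both dyes, and the mean of 0.57 ± 1.78 (SD, n = 2) was not distinguishable from 0, limma's p being 0.477 before adjustment and 1 after it.

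Hmgcs1 was one of the genes with the widest gap between replicates on these arrays. Only 28 of the 12367 genes, itself included, had replicate ratios at least as far apart as its 2.52 log2 units. For Atg7F/F the log2 signals were 9.03 in replicate 1 and 9.33 in replicate 2, and for Atg7+/+ 9.71 and 7.50. The Atg7+/+ extract of replicate 2 was thus the low one, and the other 3 lay between 9.03 and 9.71. The dimmer probe lay near background, where the offset shrinks ratios, and cannot be set against this pattern. It had log2 signals of 6.49 and 6.66 in Atg7F/F and 6.46 and 6.47 in Atg7+/+ and ratios of 0.03 and 0.18 in replicates 1 and 2. That probe was well above background on 4 Atg7F/F channels but on 2 Atg7+/+ channels only. The remaining Hmgcs1 probe did not pass the filter on background.

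Of the other 5 enzymes of this group, Pmvk had the largest mean ratio, and the means of the rest lay between -0.03 and 0.10. Pmvk, phosphomevalonate kinase, had -0.04 and -0.03 on the arrays of replicate 1 and 0.45 and 0.38 on those of replicate 2. Its adjoining probes gave the same picture, with means of 0.19 ± 0.32 and 0.18 ± 0.34 (SD, n = 2), with the same gap between replicates in the same RNA. Mvk, mevalonate kinase, had 0.10 ± 0.01 and Mvd, the decarboxylase that makes isopentenyl pyrophosphate, 0.09 ± 0.01 (SD, n = 2 each). Both were positive in each replicate, yet the sign on single arrays followed the dye, with Mvk at -0.11 and -0.06 where Atg7F/F was in Cy5 and at 0.33 and 0.26 where it was in Cy3. Idi1, the isomerase of isopentenyl pyrophosphate, had 0.003 ± 0.08 and Fdps, which makes farnesyl pyrophosphate, -0.03 ± 0.13 (SD, n = 2 each). The array files place both Idi1 probes on chromosome 2 of mm9, whereas RefSeq has the gene on chromosome 13 of GRCm38.p6, so where those probes bind is uncertain.

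**Figure D2:**
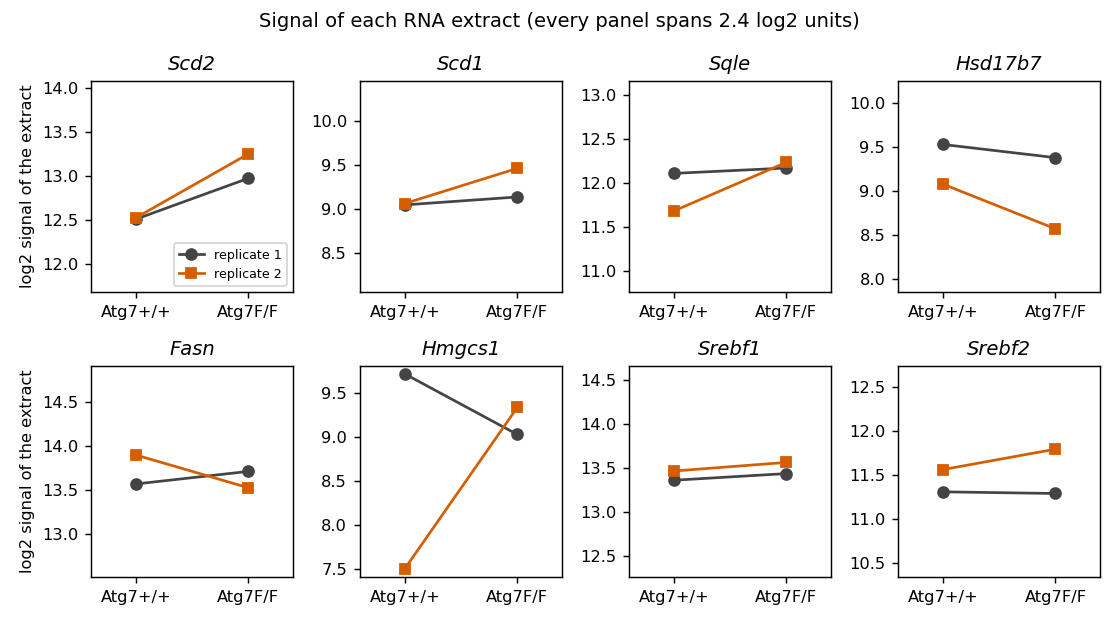
Log2 signal (y axis) of the Atg7+/+ and Atg7F/F extracts for the gene named above each panel, with a line joining the 2 extracts of one replicate; each panel spans the same range of log2 units. Both lines of Scd2 slope upward from Atg7+/+ signals of 12.51 and 12.53, whereas the lines of Hmgcs1 and Fasn cross.

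The squalene and sterol enzymes turn farnesyl pyrophosphate into squalene, lanosterol and then cholesterol. Of the 10 members 0 passed the adjusted test, 0 were higher on all 4 arrays and 1 was lower. These are 0% and 10% of the group, where 10.6% and 9.95% of all genes tested were. Their median ratio was -0.02, in replicate 1 -0.02 and in replicate 2 0.004. The member lower on all 4 was Hsd17b7, the keto reductase of C4 demethylation, with -0.07 and -0.23 in replicate 1 and -0.32 and -0.69 in replicate 2. Its mean was -0.33 ± 0.25 (SD, n = 2), 1.26-fold lower, limma's p being 0.0823 before adjustment and 1 after it. A dimmer probe was lower on the 4 arrays as well, with -0.38, -0.25, -0.10 and -0.22. By the brighter probe the extracts of the genotypes nevertheless overlapped, with log2 signals of 9.38 and 8.57 in Atg7F/F and 9.53 and 9.08 in Atg7+/+. By the dimmer probe they did not, with 7.18 and 7.11 in Atg7F/F and 7.49 and 7.27 in Atg7+/+. For the brighter probe, the gap between the replicates of one genotype was larger than the gap between genotypes.

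Sqle, squalene epoxidase and a rate-limiting step of the sterol branch, had 0.18 and -0.06 in replicate 1 and 0.68 and 0.42 in replicate 2. Its log2 signals were 12.17 and 12.24 in Atg7F/F and 12.11 and 11.68 in Atg7+/+ extracts. The Atg7F/F extracts were both higher, and the lowest extract was Atg7+/+ of replicate 2. The mean was 0.31 ± 0.35 (SD, n = 2), with an unadjusted p of 0.149 from limma. Fdft1, squalene synthase, which acts just before Sqle, had -0.08 ± 0.18 with opposite signs in the replicates. Lss, which closes squalene epoxide to lanosterol, had -0.10 ± 0.08, and Cyp51, the lanosterol demethylase, 0.10 ± 0.06 (SD, n = 2 each).

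Among the later steps, Dhcr7, the last reductase of cholesterol synthesis, had 0.17 and -0.02 in replicate 1 and 0.32 and 0.12 in replicate 2, a mean of 0.15 ± 0.11, but its dimmer probe gave 0.02. Sc5d, which introduces the Δ5 double bond, depended on the probe. The brighter probe had a mean of -0.20 ± 0.27, with -0.003 and -0.39 in replicates 1 and 2, and the dimmer one a mean of 0.27 ± 0.71, with -0.24 and 0.77 (SD, n = 2 each). In replicate 2 the probes thus pointed in opposite directions, on both arrays. Sc4mol, a C4 methyl oxidase now called Msmo1, had 0.006 ± 0.10, the C4 decarboxylase Nsdhl -0.05 ± 0.003 and the sterol isomerase Ebp 0.08 ± 0.32 (SD, n = 2 each). Across the group, both Atg7F/F extracts lay above both Atg7+/+ extracts for Cyp51, Dhcr7 and Sqle and below them for Lss and Sc5d, by the brightest probe. These are 30% and 20% of the group, where 11.4% and 10.1% of all genes tested had such extracts. The margin of Sc5d was thin, with 11.322 in Atg7F/F and 11.325 in Atg7+/+ of replicate 1. By their other probes above background the genotypes overlapped for Cyp51, Lss and Sc5d, but not for Dhcr7. Sqle had no other probe.

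**Figure D3:**
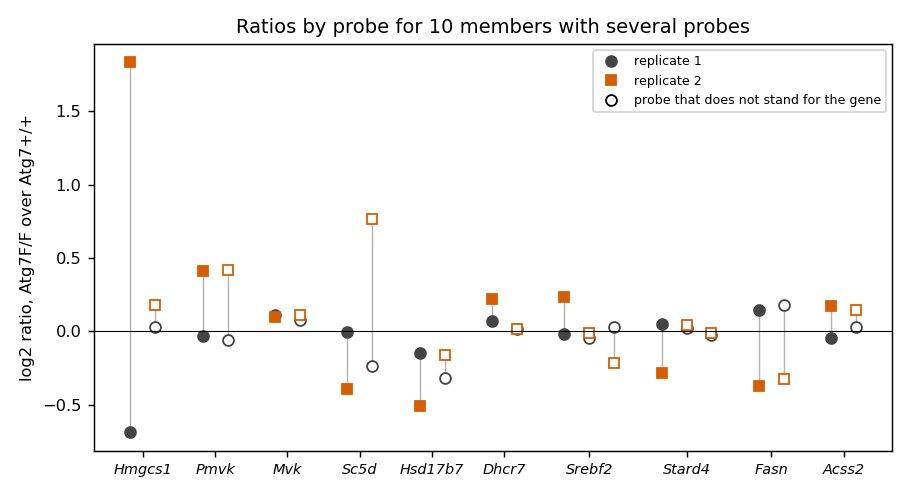
Log2 ratio of Atg7F/F over Atg7+/+ (y axis) in replicate 1 (circles) and replicate 2 (squares) for each probe of the genes named on the x axis, which have several probes above background; filled symbols mark the brightest probe, which stands for the gene. The probes of Pmvk, Mvk and Fasn nearly repeat each other, whereas those of Sc5d do not, and the dimmer probe of Hmgcs1 is near background.

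The genes that sense sterols had small mean ratios, with a median size of 0.07 log2 units where all genes tested had 0.07. Of these 6 members, which include the sterol carrier Stard4, 0 passed the adjusted test, and their mean ratios ran from -0.12 to 0.11. Srebf1 was higher on all 4 arrays but by little, with 0.07 and 0.08 in replicate 1 and 0.06 and 0.13 in replicate 2. Its log2 signals were 13.43 and 13.56 in Atg7F/F and 13.36 and 13.46 in Atg7+/+, so the genotypes overlapped, and the mean of 0.09 ± 0.02 (SD, n = 2) had an unadjusted p of 0.373 from limma. The files do not say whether the probe reads the SREBP-1a or the SREBP-1c transcript, or both. Srebf2 had -0.13 and 0.09 in replicate 1 and 0.09 and 0.37 in replicate 2, a mean of 0.11 ± 0.18, while its 2 other probes above background gave -0.03 and -0.09.

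Insig1, an SREBP target whose transcript falls when sterol is plentiful, had -0.0001 and 0.03 in replicate 1 and 0.12 and -0.14 in replicate 2. No direction can be read from these values, whose mean was 0.003 ± 0.02 (SD, n = 2) with a 95% interval from -0.26 to 0.26. Insig2 had 0.04 ± 0.13, with signs that followed the dye, being 0.24 and 0.43 where Atg7F/F was in Cy5 and -0.34 and -0.15 where it was in Cy3. Scap, the escort of SREBP, had 0.009 ± 0.12, and Stard4, which moves cholesterol between membranes, -0.12 ± 0.24 (SD, n = 2 each). The other probes of Stard4 gave 0.04 and -0.02.

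The fatty acid enzymes make palmitate from citrate or acetate and then lengthen and desaturate it. Of the 9 members 0 passed the adjusted test, 1 was higher on all 4 arrays and 0 were lower. These are 11.1% and 0% of the group, where 10.6% and 9.95% of all genes tested were. Their median was 0.03, but the replicates differed, with 0.12 in replicate 1 and -0.05 in replicate 2. Scd2, a stearoyl-CoA desaturase, was the member with the largest ratio. It had 0.50 and 0.43 on the arrays of replicate 1 and 0.76 and 0.69 on those of replicate 2. For Atg7F/F the log2 signals were 12.98 and 13.25, and for Atg7+/+ 12.51 and 12.53.

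For Scd2, then, the genotypes did not overlap and the Atg7+/+ extracts were close together. The mean was 0.60 ± 0.18 (SD, n = 2), 1.51-fold higher, with a 95% interval from 0.25 to 0.94. limma's p was 0.0111 before adjustment and 1 after it, so the difference did not pass the test over all genes. In size it exceeded the ratios of 98.5% of the genes tested. The array held 1 probe for Scd2, so no other probe can be set beside it. Among 7 adipocyte markers 2 were above background, Pparg with 0.32 in each replicate and Fabp4 with -0.56 and 0.55, and Adipoq, Plin1, Cidec, Cfd and Lep were not. The summed signal of the 2 was 2816 to 4637 in Atg7F/F and 3316 to 3671 in Atg7+/+ extracts, and the part of such cells in the Scd2 value was not tested.

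Scd1, the second desaturase, had 0.18 and -0.004 in replicate 1 and 0.49 and 0.31 in replicate 2. Its log2 signals were 9.13 and 9.46 in Atg7F/F and 9.04 and 9.06 in Atg7+/+, so that the genotypes did not overlap here either, by a narrow margin in replicate 1. The mean was 0.24 ± 0.22 (SD, n = 2), with an unadjusted p of 0.132 from limma. Over all members, by the brightest probe, both Atg7F/F extracts lay above both Atg7+/+ extracts for 5 genes (Cyp51, Dhcr7, Scd1, Scd2 and Sqle). They lay below them for 3 (Fads1, Lss and Sc5d). These are 16.1% and 9.68% of the members, to be read against the same 11.4% and 10.1% of all genes tested.

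The enzymes that supply the desaturases with palmitate and stearate had opposite signs in the replicates. Fasn, fatty acid synthase, had 0.17 and 0.12 in replicate 1 and -0.35 and -0.39 in replicate 2. Its second probe, 794 bases away, repeated this with 0.18 in replicate 1 and -0.32 in replicate 2. Both probes thus gave opposite directions in the replicates, and the mean of -0.11 ± 0.36 (SD, n = 2) was not distinguishable from 0. Elovl6, which lengthens palmitate to stearate, had 0.15 and -0.14 in replicates 1 and 2, and Acaca, acetyl-CoA carboxylase, 0.14 and -0.11. Acly, which frees acetyl-CoA from citrate, had 0.12 and -0.06. By the brightest probe, replicate 1 was positive and replicate 2 negative for these 4 genes. Opposite signs in the replicates were common, being found for 54.5% of all genes tested. The dimmer Acaca probe that passed the filter had -0.01 in replicate 1 and 0.02 in replicate 2.

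Acaca was a dim gene, with log2 signals between 6.45 and 6.61, and 1 of its 4 Atg7F/F channels was not well above background. Acss2, which activates acetate, had 0.06 ± 0.15, with -0.05 in replicate 1 and 0.17 in replicate 2. Its other probe above background had 0.03 and 0.14. Of the desaturases of polyunsaturated fatty acids, Fads1 had -0.11 ± 0.08 and Fads2 0.23 ± 0.41 (SD, n = 2 each). Fads2 had -0.14 and 0.02 in replicate 1 and 0.44 and 0.61 in replicate 2, so its mean rests on replicate 2.

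**Figure D4:**
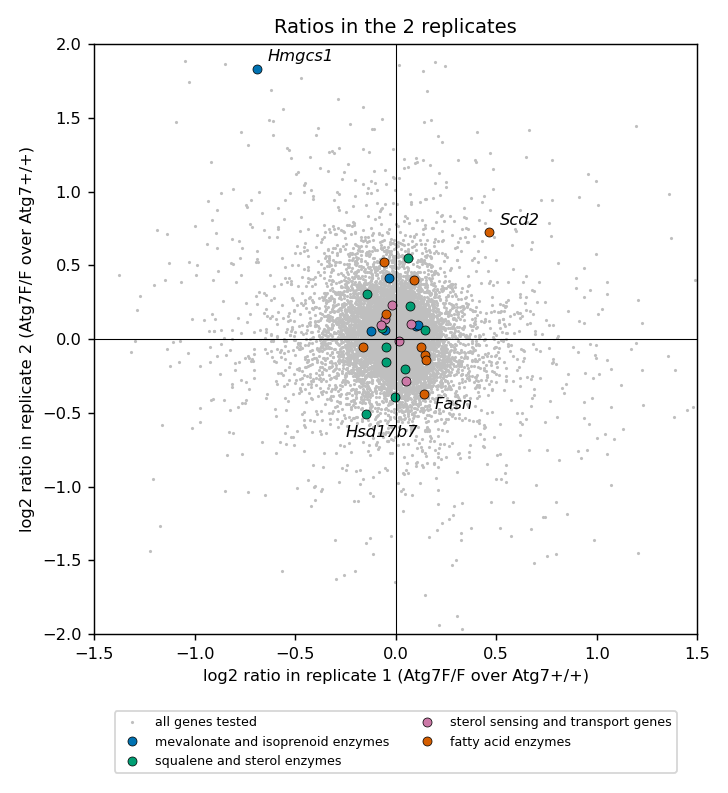
Log2 ratio of Atg7F/F over Atg7+/+ in replicate 1 (x axis) against replicate 2 (y axis) for all genes tested (grey) and the 31 members (coloured by role); 59 genes lie outside the plotted range. Scd2 is in the upper right, Hmgcs1 in the upper left and Fasn in the lower right.

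The direction of a member in one replicate was often not its direction in the other. Signs were the same in both replicates for 13 members and opposite for 18, where 45.5% of all genes tested had the same sign and 54.5% opposite signs. The gap between the replicate ratios had a median of 0.22 log2 units over the members and 0.17 over all genes tested. After Hmgcs1, the widest gaps, as replicate 2 minus replicate 1, were those of Fads2 (0.58), Fasn (-0.51), Sqle (0.49) and Pmvk (0.45). A mean of at least 0.2 in size was reached by 6 members (Fads2, Hmgcs1, Hsd17b7, Scd1, Scd2 and Sqle), where 15.5% of all genes tested reached it. One of at least 0.5 was reached by Hmgcs1 and Scd2, against 2.42%.

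Probes of one gene differed by small amounts in most cases, but not always in one direction. Of the 16 members with several probes above background, the means of a gene's probes spanned a median of 0.07 log2 units, and 0.08 over the 3806 genes of that kind on the arrays. The probe means had opposite signs for 6 of the 16 (Idi1, Insig1, Lss, Sc5d, Srebf2 and Stard4), and for 1318 of the 3806. Spans over 0.4 were found for 2 members, Hmgcs1 and Sc5d, and for 125 of the 3806 genes. The Sc5d probes were both well above background on all 4 arrays in both genotypes, whereas the dimmer Hmgcs1 probe was near background, where a large ratio could not be seen.

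A list of 28 other genes of the pathway was read in the same way, covering further sterol enzymes, the SREBP proteases and regulators, and enzymes of fatty acid elongation and activation. Of these, 25 were above background, and Mbtps2, Scd3 and Scd4 were not. In the adjusted test 0 were called higher and 0 lower, and 4 were higher and 3 lower on all 4 arrays, 16% and 12% of the 25, against 10.6% and 9.95% of all genes tested. Their median ratio was 0.03, and no mean ratio reached 0.5 in size, the extremes being -0.23 for the citrate carrier Slc25a1 and 0.33 for Acacb, the second acetyl-CoA carboxylase. Slc25a1 had -0.13 in replicate 1 and -0.33 in replicate 2, and Acacb 0.20 and 0.46.

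Promoter windows of RefSeq (GRCm38.p6, from 250 bases before to 50 after a start site) were searched on both strands, since SREBP acts with NF-Y and Sp1 at these genes. Windows were found for 24 of the 31 members, and Scd2, Sqle and Fdft1 were among those without one. The letters TCACNCCAC, one form of the sterol regulatory element, were in 1 of the 32 member windows and in 1.24% of all 32851 windows. That window belongs to Hmgcs1. The matched letters are shown in capitals with 11 bases on each side, at chr13:119690203-119690233 on the plus strand. They are centred 133 bases before the start site.
Hmgcs1 promoter: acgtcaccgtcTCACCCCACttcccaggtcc
The longer SRE-1 form, which holds those letters, was in 0 member windows and in 0.0913% of all windows. The NF-Y letters CCAAT were in 65.6% of member windows and 37.4% of all, the Sp1 letters GGGCGG in 75% and 35.7%, and the E-box CACGTG in 18.8% and 7.15%. These matches are descriptions of the letters in the windows. Apart from that pair, none of these motifs contains another.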

How the data were processed

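Arrays of 2 replicates per genotype (Atg7F/F and Atg7+/+, both SM22α-Cre+) were read from scanner files. Feature Extraction 10.1.1.1 is named in the submitters' processing notes. The deposited files give mean spot intensity and local background intensity without normalization, and a log10 ratio of the software's processed signals, per the file headers. The deposited series table holds log2 ratios by the authors. They equalled Atg7F/F over Atg7+/+ ratios of the processed signals within 0.001 for 100% of values.

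Intensities were background-corrected (normexp, offset 50, which shrinks ratios of dim spots) and loess-normalized without weight on control spots, with limma 3.58.1 in R 4.3.3. Dye-swapped arrays of an extract pair were averaged, giving n = 2. Extract signals are channel values after loess and Aquantile. Of 41174 probes, 17109 were kept: no outlier flag (36 had one), and one genotype or both well above background on the 4 arrays. RefSeq accessions gave names to 25097 probes. The brightest probe stood for each of 12367 genes.

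Ratios were tested against 0 (lmFit, eBayes, two-sided, 3.18 degrees of freedom, Benjamini-Hochberg over all genes). Each array pairs same-numbered extracts, so the replicate block is part of the test. Across genes, the correlation between such extracts' deviations from the mean of their genotype was 0.18. The members, lists, motifs and naming rule were chosen with earlier results of these data known. The rule gives array values for the 10 members of largest mean ratio and for 10 pathway genes whatever their values. The alternatives were other background corrections, normalizations, filters, probe rules, variance models, single dyes and leaving out a replicate. The code was tested on simulated data. Figures used matplotlib 3.10.9.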

Additional observations from a re-analysis of the deposited data

How the results depend on the processing

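The number of replicates, 2, limits every value. Of the 16 members followed by name under 16 alternatives each, Dhcr7, Hsd17b7, Scd1, Scd2, Sqle and Srebf1 kept their direction in every one. Several alternatives could not turn a sign, because the variance models leave the ratio as it was. For Scd1, Scd2, Sqle and Srebf1, with 1 probe each, the filters and probe rules leave it unchanged as well. The processed signals and the deposited table hold the same values. Scd2 ranged from 0.47 to 0.73, and its smallest adjusted p in limma was 0.238, with the extract pair as a random block. Over all genes that fit called 9 and the one with no replicate block (extracts unpaired) 1, against 0 in the test of the pairs; of the named members none was called in either. Members at an unadjusted p below 0.05 were 2 with the mean of all probes and 2 with Atg7F/F in Cy5 only or in Cy3 only. Those higher on all 4 arrays were 4 with offset 0 and 4 with the mean of all probes, and those lower were 0 with median centring and 2 with the mean of all probes. Median centring gave medians of 0.107 for the members, 0.056 for the squalene and sterol enzymes, 0.110 for the sterol sensing genes and 0.042 for all genes. The squalene and sterol enzymes had 0.020 with the mean of all probes, -0.089 with Atg7F/F in Cy5 only and 0.0058 in Cy3 only. In the same settings the sterol sensing genes had 0.064 and -0.038, against 0.026 with both dyes, the mevalonate enzymes 0.077 and 0.185, against 0.099, and the fatty acid enzymes 0.024 and 0.051, against 0.033. With each replicate left out, medians ran from -0.044 to 0.092 for the mevalonate enzymes, from -0.025 to 0.0040 for the squalene and sterol enzymes and from -0.0015 to 0.096 for the sterol sensing genes. The median of all genes was 0.013 with offset 0, 0.0076 with offset 16, -0.0031 without background subtraction, -0.00075 with the processed signals and with the deposited table, 0.013 with Atg7F/F in Cy5 only and -0.0050 in Cy3 only.

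With each replicate left out, signs turned for Hmgcs1 (-0.69 to 1.83), Pmvk (-0.035 to 0.41), Stard4 (-0.28 to 0.052), Fads2 (-0.060 to 0.52), Srebf2 (-0.020 to 0.23), Insig1 (-0.011 to 0.017), Fdft1 (-0.20 to 0.048), Fasn (-0.37 to 0.14) and Acly (-0.057 to 0.12). They turned with the mean of all probes for Sc5d (0.035), Srebf2 (-0.0046) and Insig1 (-0.024), with Atg7F/F in Cy5 only for Stard4 (0.092) and Srebf2 (-0.019), in Cy3 only for Insig1 (-0.054), and with median centring for Fasn (0.0053). The cause was not tested. Leaving out a replicate gives a value with no test, and counts over the 4 arrays were not given where arrays were left out.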
